A study of Mus musculus with 6 samples.

Results

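The NRF2 antioxidant target genes described here are 10 genes chosen by symbol: Nfe2l2, which encodes the transcription factor NRF2, and 9 classical targets of NRF2. A probe set carrying the single symbol was found for 9 of the 10, out of 22180 genes named on the array. Slc7a11 had 2 probe sets, and the one with the higher mean over the 6 arrays stands for it. G6pdx, which encodes the enzyme that opens the pentose phosphate pathway and feeds NADPH to the antioxidant systems, was not analysed here. The mice all carried the knockout allele Creb3l3tm1.1Sad, which removes CREB-H, a membrane-bound liver transcription factor of the endoplasmic reticulum. They were labelled as 8 weeks old and ate a normal diet. The CREB-H-ΔTC group (3 mice) received a liver-targeted adeno-associated virus carrying the active form of CREB-H, and the GFP group (3 mice) received the same kind of virus carrying GFP. Livers were taken 2 weeks later, and total RNA of each liver was read on 1 single-colour array. The sources used here do not name the promoter that drives either transgene. No animal with its own CREB-H was in the series, so values below compare a supplied active form with its absence.

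NRF2 is held at a low level in resting cells by KEAP1, an adaptor that hands it to a CUL3 ubiquitin ligase for degradation. Oxidants and electrophiles modify KEAP1, NRF2 then accumulates, pairs with a small MAF protein and binds antioxidant response elements near its targets. In the liver these targets make glutathione, reduce thioredoxin and quinones, break down haem and supply NADPH. Because NRF2 is controlled mainly as a protein, the mRNA of Nfe2l2 is not a measure of its activity.

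Array medians were 4.98 to 5.01 on the log2 scale, and precision is limited by there being 3 arrays per group. Creb3l3, the supplied gene, read 6.73, 7.25 and 7.58 in CREB-H-ΔTC livers, against 6.55, 5.93 and 6.40 in GFP livers. All CREB-H-ΔTC arrays were thus above all GFP arrays, which fits the labels, and 6.25% of named genes had that pattern. The Creb3l3 log2 fold change was 0.89 (SE 0.25, limma adjusted p = 0.65), which did not pass. The hepatocyte genes Alb and Ttr read at least 13.39 on every array, as the tissue label implies. The mean signal of Kdm5d, Eif2s3y and Uty, all on the Y chromosome, was 7.67 in CREB-H-ΔTC replicate 3 and 7.83 in GFP replicate 3. The other 4 arrays read 3.15 to 3.39. Xist, on the X chromosome, went the other way, at 3.75 and 4.43 in those replicates and 10.83 to 11.35 on the other 4 arrays. Sex is not labelled, so the differences of the 9 measured genes are also given within these arrays. In the other pathway lists they were computed only for the up to 4 named genes of each list. Among those genes they are printed where the sign turns, or where a gene below an unadjusted p of 0.05 moves by more than 1.5 times. Genes of the lists that are not named can turn sign as well. The 4 arrays without and the 2 with Y-linked signal are sets read from the data, not groups of the study.

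None of the 9 measured NRF2 target genes differed between the groups after adjustment over all 41345 probe sets with limma. In that comparison 2 probe sets passed in all, Apoa4 and Asic5, or 0.00484% of those tested. At an unadjusted p below 0.05 there was 1 gene of the 9, Nqo1, which was higher with CREB-H-ΔTC. Over all named genes, 3.29% were higher and 2.43% lower at that level, the shares to set beside the same counts in the lists below. Nqo1 was the 1 gene of the 9 whose CREB-H-ΔTC arrays all lay above its GFP arrays, a pattern found in 6.25% of named genes. None lay wholly below, a pattern found in 6.01%. By sign alone, 3 of the 9 were higher and 6 lower with CREB-H-ΔTC, while 50.8% of named genes were higher. The median log2 fold change of the 9 genes was -0.11, beside 0.0030 over all named genes, and it turned to 0.016 without CREB-H-ΔTC replicate 3. On the 4 arrays without Y-linked signal, 5 of the 9 were higher, and leaving out CREB-H-ΔTC replicate 3 alone also gave 5. The shares of all named genes that were higher in those settings are not given here.

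Of the 9 genes, 8 had a 95% interval that lay inside a 2-fold change in either direction, and the interval of Osgin1 did not. The 8 include Slc7a11, whose signal was dim enough that its difference may be understated. The share of all named genes inside that bound is not given here. The plot of log2 signal by array shows Nqo1 as the gene with separated groups.

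**Figure D1:**
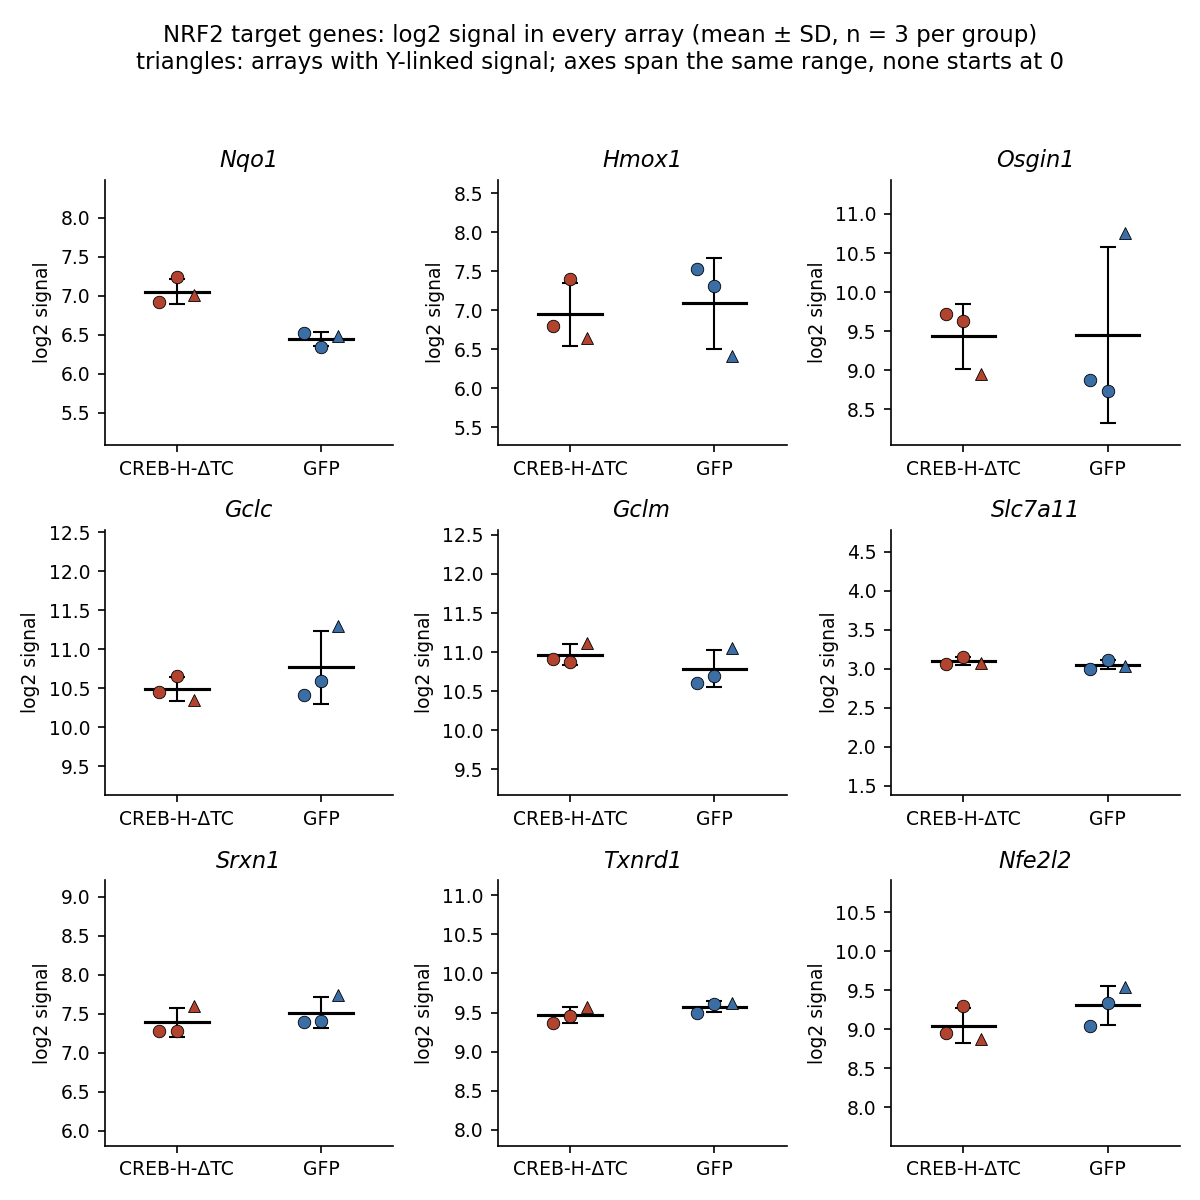
Log2 signal (vertical axes, all spanning the same range and none starting at 0) of the 9 measured genes in each array, CREB-H-ΔTC in red on the left and GFP in blue on the right, with the mean and SD as black bars (n = 3 per group) and arrays with Y-linked signal as triangles. The Nqo1 groups are separate, at 6.92 to 7.23 against 6.34 to 6.52, and the GFP array with Y-linked signal stands far above the other GFP arrays in Osgin1, at 10.75.

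Nqo1 encodes a quinone reductase that uses NADPH or NADH and is the most widely used reporter gene of NRF2 activity. It read 6.92, 7.23 and 7.00 in CREB-H-ΔTC livers, against 6.52, 6.34 and 6.48 in GFP livers. Every CREB-H-ΔTC array was above every GFP array. Nqo1 averaged 7.05 ± 0.16 in CREB-H-ΔTC livers and 6.45 ± 0.094 in GFP livers (SD, n = 3 each), a ratio of 1.52 with a 95% interval of 1.25 to 1.86. The limma log2 fold change was 0.61 (SE 0.12, unadjusted p = 0.0017, adjusted p = 0.60), which did not pass. The exact two-sided permutation p of Nqo1 was 0.1, the smallest that 3 against 3 arrays allow. By unadjusted p it ranked 115 of 41345 probe sets. The 2 arrays with Y-linked signal differed by 0.53 in Nqo1 and the other 4 by 0.65. With any 1 array left out it lay between 0.52 and 0.67.

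The promoters of 3 genes are shown to set the letters near the start of Nqo1 beside those of Osgin1 and Srxn1, whose groups overlapped. Each window is the gene strand, 5′ to 3′, from 250 bases before the transcript start to 50 after it, in the RefSeq table of GRCm38.p6. RefSeq windows were matched for 8 of the 10 genes, with 10 windows in all because Txnrd1 has 3. Both strands were searched for 3 motifs. TGACNNNGC is the core of the antioxidant response element. TGANTCA is the core bound by AP-1 and NF-E2 type factors, which an antioxidant response element can contain. TGACGTCA is the cAMP response element, the class of site bound by CREB-family factors. Capitals mark matches to any of these motifs.
Nqo1 (chr8:107403156-107403455, minus strand): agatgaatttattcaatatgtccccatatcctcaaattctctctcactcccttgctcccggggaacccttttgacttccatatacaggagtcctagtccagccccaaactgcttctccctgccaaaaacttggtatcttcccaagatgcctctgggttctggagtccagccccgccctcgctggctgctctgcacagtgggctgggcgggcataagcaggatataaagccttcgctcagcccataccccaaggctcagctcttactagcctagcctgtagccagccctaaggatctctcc
Osgin1 (chr8:119436897-119437196, plus strand): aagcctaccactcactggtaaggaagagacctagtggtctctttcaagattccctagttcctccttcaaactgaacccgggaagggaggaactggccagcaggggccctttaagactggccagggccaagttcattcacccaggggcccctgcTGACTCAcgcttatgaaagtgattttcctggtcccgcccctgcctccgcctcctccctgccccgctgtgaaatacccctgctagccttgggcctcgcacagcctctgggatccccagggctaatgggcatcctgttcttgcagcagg
Srxn1 (chr2:152105274-152105573, plus strand): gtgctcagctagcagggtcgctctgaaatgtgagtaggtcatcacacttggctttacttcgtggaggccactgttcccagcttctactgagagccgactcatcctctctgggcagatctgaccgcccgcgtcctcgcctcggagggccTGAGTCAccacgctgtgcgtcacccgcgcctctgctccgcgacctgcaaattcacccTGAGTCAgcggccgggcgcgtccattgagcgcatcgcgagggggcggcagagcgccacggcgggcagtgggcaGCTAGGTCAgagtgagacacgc
The Nqo1 window held none of the 3 motifs. The Osgin1 window held 1 match to TGANTCA, which begins 97 bases before the start. The Srxn1 window held 2 matches to TGANTCA, beginning 102 and 45 bases before the start, and 1 match to TGACNNNGC on the opposite strand within the transcript. Among the 8 genes with a window, 5 had a match to TGACNNNGC (Gclm, Srxn1, Txnrd1, G6pdx and Nfe2l2) and 2 to TGANTCA, while no window held TGACGTCA. Counted by window, 5 of the 10 held TGACNNNGC and 2 held TGANTCA. Of all 32851 promoter windows in the table, 12.4% held TGACNNNGC, 7.81% TGANTCA and 1.79% TGACGTCA. These matches describe letters only, since no binding was measured, and a window of this length leaves out more distant elements.

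Hmox1 encodes haem oxygenase 1, which opens the haem ring and releases iron and biliverdin, and which liver macrophages also express. It read 6.80, 7.41 and 6.64 in CREB-H-ΔTC livers, against 7.53, 7.31 and 6.42 in GFP livers. The groups overlapped over nearly their whole range, and in each group the array with Y-linked signal was the lowest. The log2 fold change of Hmox1 was -0.14 (SE 0.33; ratio 0.91, 95% interval 0.53 to 1.56; limma adjusted p = 0.96). The 2 arrays with Y-linked signal differed by 0.22 and the other 4 by -0.32. Leaving out 1 array turned the sign, to 0.083 without GFP replicate 1 and 0.016 without CREB-H-ΔTC replicate 3.

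Markers of Kupffer cells and macrophages varied between the same arrays. All 11 measured markers had a positive log2 fold change with CREB-H-ΔTC (median 0.40, range 0.27 to 0.60), and none passed the limma test at either level. Their summed linear signal was 3967 to 6953 in CREB-H-ΔTC livers, against 3040 to 5683 in GFP livers, so the groups overlapped. For 1 marker of 11, Cd68, all CREB-H-ΔTC arrays lay above all GFP arrays, a pattern found in 6.25% of named genes. Defining markers were not near the bottom of the scale: Clec4f read 8.77 to 9.53 in CREB-H-ΔTC livers, against 8.44 to 9.13 in GFP livers. In each group the marker sum was lowest in replicate 3, the array with Y-linked signal. In whole liver, a change in the number of macrophages and a change in RNA per cell cannot be told apart, and the part of macrophages in the Hmox1 values was not tested.

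Osgin1 encodes an oxidative stress-induced growth inhibitor and had the widest spread of the 9 genes. It read 9.71, 9.63 and 8.95 in CREB-H-ΔTC livers, against 8.87, 8.73 and 10.75 in GFP livers. The groups overlapped through GFP replicate 3 alone, the highest of the 6 values. CREB-H-ΔTC replicate 3 was the lowest of its group and still above the other 2 GFP arrays. The Osgin1 log2 fold change over all arrays was -0.018 (SE 0.54; ratio 0.99, 95% interval 0.41 to 2.40; limma adjusted p = 1.00). With both replicates 3 left out it was 0.87 (SE 0.13, limma unadjusted p = 0.0012, adjusted p = 0.54), and both CREB-H-ΔTC arrays lay above both GFP arrays. Between the 2 arrays with Y-linked signal it was -1.80. Without GFP replicate 3 the Osgin1 difference was 0.63 (limma adjusted p = 0.65), and without CREB-H-ΔTC replicate 3 it was 0.22.

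Gclc and Gclm encode the catalytic and the modifier subunit of glutamate-cysteine ligase, the rate-limiting enzyme of glutathione synthesis. Gclc read 10.45, 10.66 and 10.35 in CREB-H-ΔTC livers, against 10.41, 10.59 and 11.30 in GFP livers. Apart from GFP replicate 3 all values of Gclc lay within 10.35 to 10.66. Its log2 fold change was -0.28 (SE 0.24; ratio 0.825, 95% interval 0.56 to 1.22; limma adjusted p = 0.88), -0.011 without GFP replicate 3 and -0.46 without GFP replicate 1. Between the 2 arrays of the replicates 3 it was -0.95.

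Gclm read 10.91, 10.87 and 11.12 in CREB-H-ΔTC livers, against 10.61, 10.70 and 11.05 in GFP livers. In each group replicate 3 was the highest, and the 2 other CREB-H-ΔTC arrays lay above the 2 other GFP arrays. The log2 fold change of Gclm was 0.18 (SE 0.15; ratio 1.14, 95% interval 0.89 to 1.45; limma adjusted p = 0.88). The 2 arrays with Y-linked signal differed by 0.068 and the other 4 by 0.24. It was 0.094 without GFP replicate 1, 0.11 without CREB-H-ΔTC replicate 3 and 0.32 without GFP replicate 3. The subunits therefore had opposite signs over all arrays, with 95% intervals that both included no change, and the same sign among the 4 arrays without Y-linked signal, where Gclc differed by 0.057.

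Slc7a11 encodes the transport subunit of the cystine-glutamate exchanger that brings in cystine for glutathione. It read 3.06, 3.15 and 3.07 in CREB-H-ΔTC livers, against 3.00, 3.11 and 3.04 in GFP livers. Its probe set was among the dimmest 25% on these arrays, where differences may be understated. The Slc7a11 log2 fold change was 0.045 (SE 0.095; ratio 1.03, 95% interval 0.88 to 1.21), and that of its further probe set was 0.0049. In replicates 3 alone the difference was 0.031, in the 4 arrays lacking Y-linked signal 0.051, and with 1 array left out it lay between 0.015 and 0.075.

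Srxn1 encodes sulfiredoxin, which restores peroxiredoxins that peroxide has over-oxidised. It read 7.28, 7.28 and 7.60 in CREB-H-ΔTC livers, against 7.39, 7.41 and 7.74 in GFP livers. The 2 CREB-H-ΔTC arrays without Y-linked signal were below the 2 such GFP arrays, and replicate 3 was the highest of each group by more than the groups differed. The Srxn1 log2 fold change was -0.12 (SE 0.15; ratio 0.92, 95% interval 0.72 to 1.17; limma adjusted p = 0.91). It was -0.14 between the 2 arrays of the replicates 3 and -0.12 among the other 4, although it lay between -0.23 (without CREB-H-ΔTC replicate 3) and -0.012 (without GFP replicate 3) with 1 array left out.

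Txnrd1 encodes the cytosolic thioredoxin reductase, a selenoprotein that keeps thioredoxin reduced. It read 9.37, 9.46 and 9.57 in CREB-H-ΔTC livers, against 9.50, 9.60 and 9.62 in GFP livers. The ranges overlapped, at 9.37 to 9.57 and 9.50 to 9.62. The Txnrd1 log2 fold change was -0.11 (SE 0.10; ratio 0.93, 95% interval 0.78 to 1.10; limma adjusted p = 0.89). In replicates 3 alone the difference was -0.057, in the 4 arrays lacking Y-linked signal -0.14, and -0.061 without CREB-H-ΔTC replicate 1.

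Nfe2l2 read 8.96, 9.30 and 8.88 in CREB-H-ΔTC livers, against 9.05, 9.33 and 9.54 in GFP livers. Its highest value was again GFP replicate 3, and the groups overlapped. The Nfe2l2 log2 fold change was -0.26 (SE 0.17; ratio 0.83, 95% interval 0.63 to 1.11; limma adjusted p = 0.83). Between the arrays with Y-linked signal it was -0.65, while among the other 4 it was -0.063, and it was -0.15 without GFP replicate 3.

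Replicate 3 of the GFP group thus set the upper end of many members. It held the highest of the 6 values in 5 of the 9 genes (Gclc, Srxn1, Txnrd1, Osgin1 and Nfe2l2) and the lowest in 1 (Hmox1). Over all named genes that array was the highest in 19.2% and the lowest in 19.2%. The array with Y-linked signal was the highest of its group in both groups for 3 of the 9 genes, Gclm, Srxn1 and Txnrd1, a pattern found in 16.4% of named genes. It was the lowest of both groups for Hmox1, a pattern found in 15.7% of named genes.

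**Figure D2:**
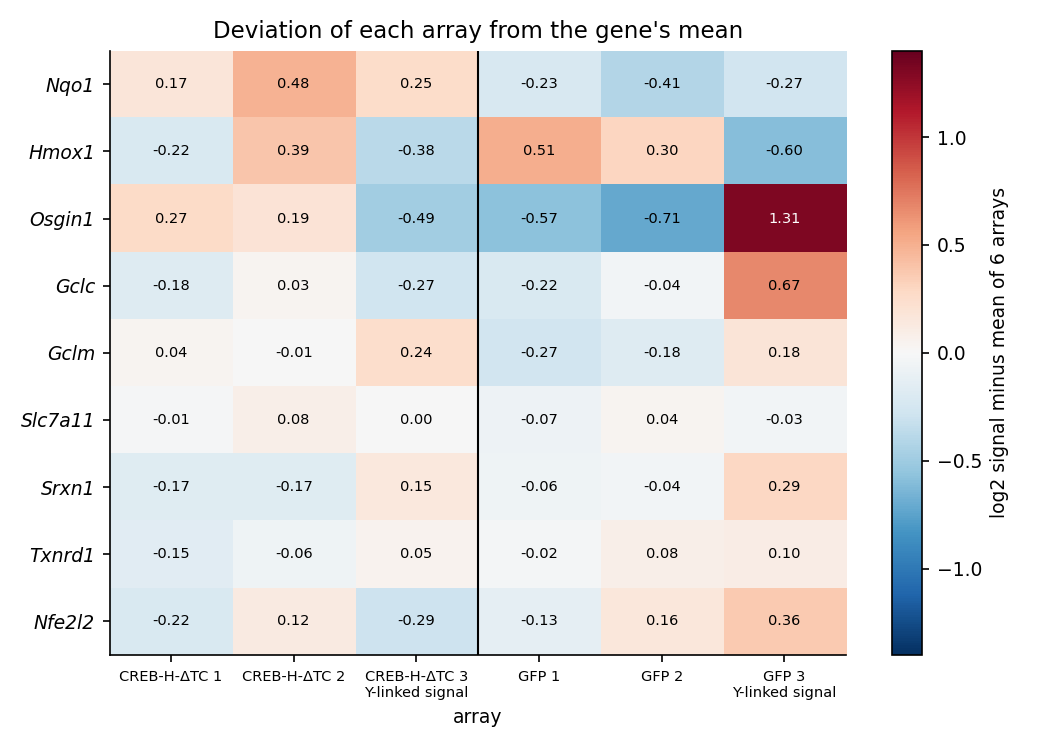
Each cell gives the log2 signal of a gene (rows) in an array (columns, CREB-H-ΔTC left of the line and GFP right of it) minus that gene's mean over the 6 arrays, red above the mean and blue below it. Nqo1 is above its mean in all 3 CREB-H-ΔTC arrays and below it in all 3 GFP arrays, and the strongest single departure is Osgin1 in GFP replicate 3, at 1.31.

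**Figure D3:**
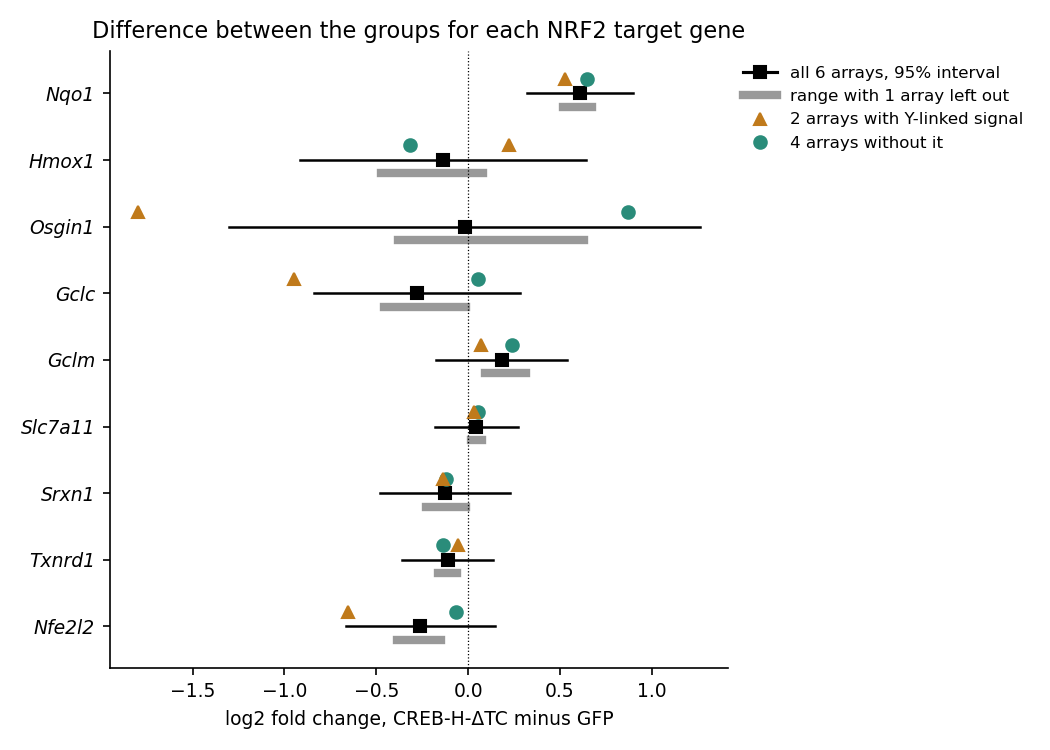
Log2 fold change (horizontal axis, CREB-H-ΔTC minus GFP) of the 9 genes over all 6 arrays with its 95% interval (black squares and lines), the range with 1 array left out (grey bars), and the difference within the 2 arrays with Y-linked signal (triangles) and the 4 without it (circles). The interval of Nqo1, 0.32 to 0.90, is the 1 interval of the 9 that leaves out 0, and the triangle and circle of Osgin1 lie at -1.80 and 0.87.

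Genes with 6 values close to those of Nqo1 were sought among 19396 other named genes, leaving out predicted ones, by the root mean square difference of the values after each gene was centred on its own mean. The 3 closest were Csrnp1 (0.076), Grtp1 (0.083) and Ccng1 (0.096 on the log2 scale), while Nqo1 itself varied by 0.32 about its mean. Ccng1 read 9.45, 9.64 and 9.42 in CREB-H-ΔTC livers, against 8.80, 8.92 and 8.97 in GFP livers. These genes were picked for this likeness, so their differences are a description with no test.

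Other reported NRF2 targets were split in sign. Of 32 listed, 26 had a probe set, and none passed the limma test after adjustment. At an unadjusted p below 0.05, 1 was higher, Cbr1, and 1 lower, Ugdh. The list had 11 genes higher and 15 lower with CREB-H-ΔTC, with a median log2 fold change of -0.045. Cbr1, a carbonyl reductase, read 10.53 to 10.64 in CREB-H-ΔTC livers, against 9.32 to 10.14 in GFP livers (log2 fold change 0.75, SE 0.21, limma adjusted p = 0.65). Ugdh, which makes the UDP-glucuronic acid used in conjugation, read 10.67, 10.72 and 10.58 in CREB-H-ΔTC livers, against 11.07, 10.91 and 11.36 in GFP livers (log2 fold change -0.46, SE 0.14, limma adjusted p = 0.65). The groups of both genes were separate. In the list, 3 genes lay wholly above in CREB-H-ΔTC livers, Cbr1 and Fth1 among them, and 1 wholly below, Ugdh. Such patterns were found in 6.25% and 6.01% of named genes. Between the 2 arrays with Y-linked signal Cbr1 differed by 1.21 and among the other 4 by 0.51, and Ugdh by -0.78 and -0.30. Fth1, the ferritin heavy chain, differed by 0.25 (SE 0.13) and Abcc3, an efflux pump for conjugates, by -0.25 (SE 0.15).

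Genes that control or partner NRF2 gave no call over all 6 arrays. Of 11 listed, 10 were measured, with 6 higher and 4 lower, a median log2 fold change of 0.014 and none past either level of the limma test. Keap1 read 7.36, 7.19 and 7.21 in CREB-H-ΔTC livers, against 7.54, 7.34 and 7.32 in GFP livers, so that the groups overlapped (log2 fold change -0.15, SE 0.11). Mafk, a small MAF partner, differed by 0.22 (SE 0.11), Btrc, the F-box protein of a further ligase for NRF2, by 0.37 (SE 0.20) and Bach1, a repressor at the same elements, by 0.14 (SE 0.10). At an unadjusted p below 0.05 the list gave 1 gene without GFP replicate 3, on the 4 arrays without Y-linked signal, with a term for that signal and with the replicate numbers as a block. Mafk and Bach1 were the 2 of the 10 whose groups did not overlap, both higher, a pattern found in 6.25% of named genes.

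The systems that the members feed gave no call over all 6 arrays. Of the 20 measured genes for further glutathione, thioredoxin and peroxide-removing proteins, 11 were higher and 9 lower (median 0.018), with none at an unadjusted limma p below 0.05 and 1 without GFP replicate 2. The lowest p in that list belonged to Gpx4, the lipid peroxide reductase (0.19, SE 0.12), Slc3a2, the partner subunit of Slc7a11 (0.16, SE 0.10), the mitochondrial superoxide dismutase gene Sod2 (-0.15, SE 0.10) and Prdx3, a mitochondrial peroxiredoxin (0.15, SE 0.11). Of 8 measured genes of the pentose phosphate pathway and NADPH supply, 2 were higher and 6 lower (median -0.14), again with none below that level. Pgd differed by 0.22 (SE 0.16), Taldo1 by -0.21 (SE 0.13), H6pd by -0.21 (SE 0.15) and Idh1 by -0.15 (SE 0.12). Pgd differed by -0.16 between the 2 arrays with Y-linked signal and by 0.41 among the other 4.

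Of 10 measured genes of haem and iron handling beside Hmox1, 6 were higher and 4 lower (median 0.034), and 1 was below an unadjusted limma p of 0.05 (2 without GFP replicate 3 or without CREB-H-ΔTC replicate 3). The 1 gene over all arrays was Fech, which inserts iron into haem. It read 10.35, 10.14 and 10.26 in CREB-H-ΔTC livers, against 9.65, 9.70 and 9.99 in GFP livers, with separate groups (log2 fold change 0.47, SE 0.13, limma adjusted p = 0.64). Alas1, the rate-limiting enzyme of haem synthesis, differed by 0.45 (SE 0.20) with overlapping groups, and Blvrb, a biliverdin reductase, by -0.15 (SE 0.22). Between the 2 arrays with Y-linked signal Fech differed by 0.275, Alas1 by -0.15 and Blvrb by -0.54, while among the other 4 Fech differed by 0.56, Alas1 by 0.75 and Blvrb by 0.047.

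Some members answer to other regulators as well: Nqo1 also to the aryl hydrocarbon receptor, Slc7a11 also to ATF4, and G6pdx also to lipogenic regulators. Of 7 genes of the aryl hydrocarbon receptor list, 3 were higher and 4 lower (median -0.0090). Cyp1a1, its classical target, read 5.21, 5.32 and 5.22 in CREB-H-ΔTC livers, against 4.87, 4.75 and 4.82 in GFP livers (log2 fold change 0.44, SE 0.097, limma adjusted p = 0.61). Like Nqo1, Cyp1a1 had separate groups and did not pass, and it was the 1 gene of the 7 below an unadjusted p of 0.05. Cyp1a2 (-0.26, SE 0.15), Ahr (0.077, SE 0.14) and Tiparp (0.10, SE 0.19) had overlapping groups. Ahr differed by -0.011 between the 2 arrays with Y-linked signal and by 0.12 among the other 4.

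In the ATF4 stress response list of 10 genes, 2 were higher and 8 lower (median -0.048), and 3 were below an unadjusted limma p of 0.05. Among all named genes, 3.29% were higher and 2.43% lower at that level. Atf5 differed by 0.76 (SE 0.27), Chac1, which degrades glutathione, by 0.51 (SE 0.21) and Ddit3 by -0.37 (SE 0.12), while Atf4 itself differed by -0.23 (SE 0.13). None of the 10 passed after adjustment. The count of 3 did not hold with any 1 array left out: it was 0 without GFP replicate 1, 1 without GFP replicate 2 and 2 without any other array. Atf5 differed by 1.31 between the 2 arrays with Y-linked signal and by 0.49 among the other 4. In the lipogenic list of 7 genes, 5 were higher and 2 lower (median 0.25), and 1, the regulator Srebf1, was below an unadjusted limma p of 0.05 (0.65, SE 0.23, adjusted p = 0.69). The enzymes Acaca, Elovl6 and Acly differed by 0.33 (SE 0.23), 0.33 (SE 0.27) and 0.24 (SE 0.23). No gene of the lipogenic list was below that level once replicate 1 of either group or replicate 2 of the GFP group was left out. Srebf1 differed by 0.17 between the 2 arrays with Y-linked signal and by 0.89 among the other 4. Acaca, Elovl6 and Acly turned sign, at -0.081, -0.12 and -0.38 between the 2 arrays with that signal and 0.53, 0.55 and 0.56 among the other 4.

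**Figure D4:**
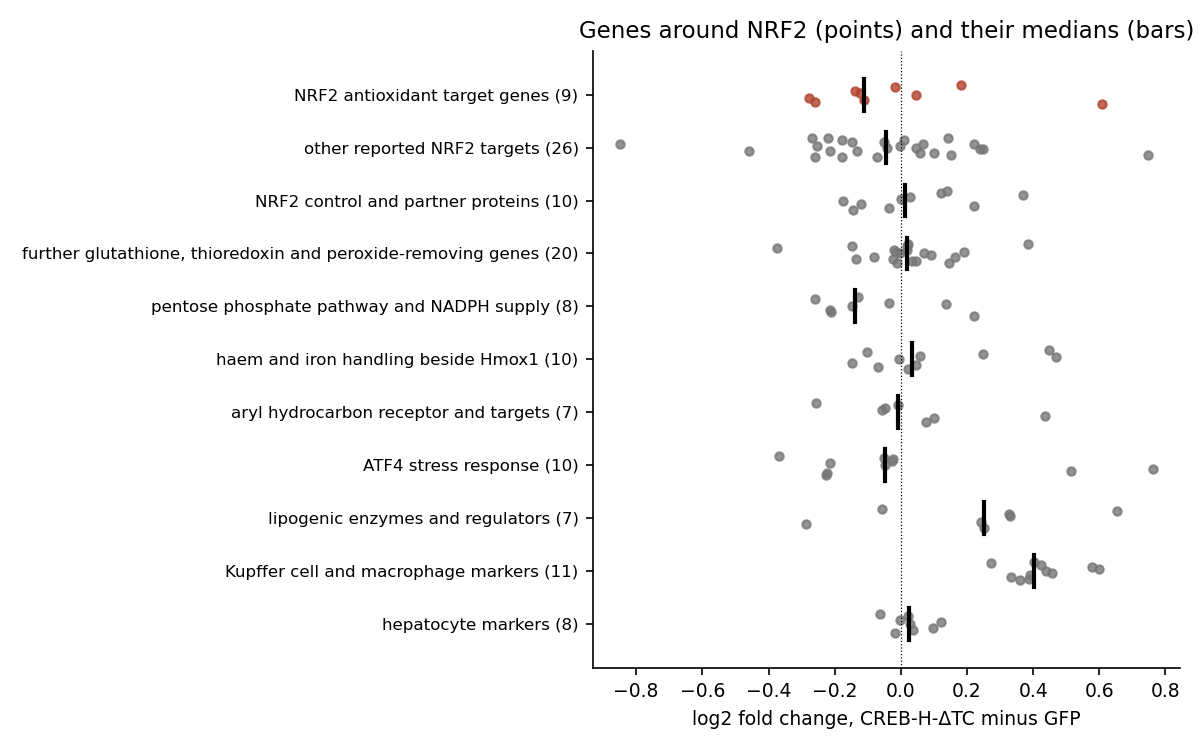
Log2 fold change (horizontal axis, CREB-H-ΔTC minus GFP) of single genes (points, the NRF2 targets in red) in each list, with the number of measured genes in brackets and the list's median as a black bar. The NRF2 targets have a median of -0.11 with Nqo1 alone at 0.61, and all 11 Kupffer cell and macrophage markers lie above 0.

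Of the other cell markers, hepatocyte genes had a median log2 fold change of 0.026 (5 of 8 higher), endothelial genes 0.11 (6 of 7 higher) and stellate cell genes 0.15 (7 of 8 higher). Monocyte genes had a median of 0.073 (4 of 5 higher), neutrophil genes -0.033 (3 of 6 higher), lymphocyte genes 0.043 (5 of 7 higher) and cholangiocyte genes 0.19 (3 of 4 higher). None of these marker genes passed after adjustment in limma, and 5 were below an unadjusted p of 0.05 (Retnlg, Cd79a, Ms4a1 and Krt19 higher, Sox9 lower). At that level 3.29% of named genes were higher and 2.43% lower. Between the 2 arrays with Y-linked signal Ms4a1 differed by 0.0012, Cd79a by 0.25 and Retnlg by 0.87. Among the other 4 Ms4a1 differed by 0.57, Cd79a by 0.73 and Retnlg by 0.52. Several of the 5 were dim: Retnlg read 3.16 to 4.04 and Krt19 4.14 to 4.75, below the array medians of 4.98 to 5.01. Ms4a1 read 4.24 to 4.99. All 6 neutrophil markers read below those medians on every array. So did the monocyte genes Chil3 and Ccr2 and the cholangiocyte gene Epcam. Differences of such dim markers may be understated, so medians near 0 do not show unchanged cell content. Red cell markers were not analysed here.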

How the data were processed

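The deposited table holds 1 value per probe set and array. Per the submitters' processing notes, the authors used the Transcriptome Analysis Console to make these log2 signals. Its version and how it corrected, summarised, normalized or filtered the signals is not given in the sources used. The values ran from 1.42 to 13.87, a range that fits a log2 scale. Array medians were nearly equal, at 4.98 to 5.01. No detection calls were used here, and low signals may understate differences. Names were taken from the platform table of GEO: 23521 of 41345 probe sets had 1 symbol, 1814 several and 16010 none. RefSeq GRCm38.p6 held the Entrez ID of 23328.

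CREB-H-ΔTC was compared with GFP using limma 3.58.1 in R 4.3.3 (lmFit, eBayes) on all probe sets, two-sided, with Benjamini-Hochberg adjustment and 0.05 as the threshold. The SE printed beside a log2 fold change is limma's moderated one. Replicates are labelled biological. The fit was checked on simulated data. Non-overlap means that all 3 arrays of a group lie beyond all 3 of the other. The members and lists were chosen with earlier results of these data known. Named genes were the members, up to 4 genes of each list by lowest unadjusted p, Creb3l3, Apoa4, Asic5 and the 3 genes closest to Nqo1. Outside that rule, Alb, Ttr, Clec4f, Xist and the Y-linked genes check the samples, and Gstp1 was chosen after its values were seen. The 18 alternatives covered normalization, dim-probe filters, variance models, array weights, replicate blocks, left-out arrays, Y-linked signal and choice of probe sets. The interaction of group and Y-linked signal, and the values of list genes within those arrays, were added after seeing the data. Figures used matplotlib 3.10.9.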

Additional observations from a re-analysis of the deposited data

Results flagged for a closer look

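Osgin1 differed in opposite directions in the arrays with and without Y-linked signal. Among the 4 arrays without that signal both CREB-H-ΔTC arrays (9.71 and 9.63) lay above both GFP arrays (8.87 and 8.73), while of the 2 arrays with it CREB-H-ΔTC read 8.95 and GFP 10.75. The difference between the effects was -2.67 on the log2 scale. It was computed after these values were seen and rests on 1 array per group with Y-linked signal, so it is given as a description. The limma interaction term over all probe sets did not pass (adjusted p = 0.25). With 1 such array per group, sex and the single animal cannot be told apart. How often the groups separate on the other 4 arrays over all named genes is not given here.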

How the results depend on the processing

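None of the 9 genes passed the adjusted threshold in limma under any of the 18 alternatives in which it was tested, and 1 or 2 were higher at an unadjusted p below 0.05. The Nqo1 difference lay between 0.52 and 0.67 in all of them (adjusted p = 0.40 to 0.80). On the 4 arrays without Y-linked signal, 2 genes (Nqo1 and Osgin1) were higher at an unadjusted p below 0.05, and 5 of 9 by sign. The shares of all named genes in that fit are not given here, so these counts stand without a background. On the same arrays the median of the 9 genes was 0.051, and Gclc (0.057) and Osgin1 (0.87) turned sign. Osgin1 also turned with array weights (0.28). With 1 array left out, Osgin1 ranged from -0.38 to 0.63, Hmox1 from -0.47 to 0.083, the median of the 9 genes from -0.15 to 0.016, the count higher by sign from 3 to 5, the count higher at an unadjusted p below 0.05 from 1 to 2, and the probe sets that passed in the whole table from 0 to 2. That last number was 0 on the 4 arrays, 1 with a term for Y-linked signal and 0 with the replicate block. The replicate numbers were tried as a block, although same-numbered arrays shared deviations from their group means weakly (r over probe sets of 0.078, 0.13 and 0.33) and not every array was closest to its own number. Under the block Nqo1 was 0.61 (SE 0.14, adjusted p = 0.51), and no call among the 9 genes changed. Of the other lists, the count at an unadjusted p below 0.05 moved by over 1.5 times in some alternatives for haem and iron handling (5 of 18), NRF2 control (4), lipogenic genes (3), the ATF4 response (2) and glutathione, thioredoxin and peroxide removal (1). Slc7a11 was removed by both filters on dim probe sets. The causes of these shifts were not tested, beyond the arrays each setting leaves out. Over the whole table the median difference was -0.015, and 0.0047 after quantile normalization or 0.0028 after centring. With 3 arrays per group, the interval of Osgin1 (a ratio of 0.41 to 2.40) does not show whether it changed.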

Other observations

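Gstp1, a glutathione transferase and reported NRF2 target, was chosen after its values were seen. It read 10.71, 10.74 and 12.17 in CREB-H-ΔTC livers, against 10.43, 10.36 and 12.66 in GFP livers. The array with Y-linked signal was the highest of each group by more than the groups differed (log2 fold change 0.057, SE 0.69). Of the arrays with that signal, CREB-H-ΔTC (12.17) read below GFP (12.66). Of the others, both CREB-H-ΔTC arrays lay above both GFP arrays, so the direction differed between these sets. The share of all named genes with such a separation is not given here.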
